A study of Mus musculus with 31 samples.

Results

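Promoter peaks shared by 2 or more genes were examined in an ATAC-seq count table of mouse regulatory T cells (Tregs). ATAC-seq counts transposase insertions in open DNA, so a peak's count is a measure of its accessibility. Members were the peaks that the deposited annotation places in the promoter class and beside which it lists at least 2 genes. There were 6605 such peaks among 104979 in all, which is 22.4% of the 29422 promoter-class peaks, and the other 22817 promoter-class peaks, which list 1 gene, served as the comparison set. The rule reads only the annotation and no count, although the peaks themselves were called from ATAC-seq reads.

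Spleen Tregs came from C57BL/6 mice of the RFP-FoxP3 line, which carry a red fluorescent reporter of FoxP3, a transcription factor that defines Tregs. Mice received 5 µg of mouse IL-2 (mIL-2, here IL2), 20 µg of the mIL-2/CD25 fusion protein (FP) or 100 µL of PBS, which served as the control at each time. At 0.75 h and at 16 h there were 3 IL2, 3 FP and 3 PBS libraries each. At 72 h there were 3 FP and 3 PBS libraries, and at 168 h 4 FP and 3 PBS libraries, which made 31 libraries in 10 groups. Each time has its own date in the sample ids, so time and date cannot be told apart, and every effect was taken against PBS of the same time. The labels' treatment protocol gives 0.75 h for all libraries, so the later times rest on the sample titles. The labels name 2 technical replicates per biological sample and do not say whether the libraries of a group came from separate animals, so each p measures the spread between these libraries, which may be technical.

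The total count of a library lay between 7.39 and 59.6 M (M, mega). At 168 h, FP replicate 2 with 12.3 M counts and PBS replicate 1 with 7.39 M counts stood apart from the rest, with a mean correlation with the other libraries of 0.772 for FP and 0.737 for PBS, where the median over all libraries was 0.853. CPM values are counts per M counts of the library, whose total was multiplied by its TMM factor (edgeR's scaling between libraries). Promoter-class peaks were present for 7 of 7 Treg and T cell marker genes, at 7.56 to 32.9 CPM per kb of peak over PBS libraries. They were present for 2 of 5 B cell genes, at 5.86 and 5.99 CPM per kb, for 2 of 3 NK cell genes, for Cd8b1 but not Cd8a, for 1 of 5 erythroid genes and for 0 of 5 myeloid genes.

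Neighbouring genes on opposite strands can share one stretch of open DNA, from which transcription starts in both directions. Such bidirectional promoters are known as short, often CpG-rich stretches without a TATA box, and many serve housekeeping pairs in DNA repair, metabolism and mitochondrial function. A promoter can also be shared by a coding gene and a long non-coding or antisense RNA, and genes listed together can also be neighbours whose transcripts overlap. IL-2 signals in Tregs through STAT5, which binds a palindromic element with the consensus TTCNNNGAA.

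To see what the members hold in common, the starts of each listed gene were looked up in GENCODE M21, the gene annotation of the same genome build (GRCm38). Of the 6605 members, 4366 (66.1%) held starts of at least 2 of their own genes in the peak or within 1 kb of it. In 2427 members (36.7%) the nearest starts pointed away from each other, here called divergent, with a median gap of 142 bp between them (quartiles 83 and 227 bp). In 1494 members (22.6%) the starts lay on opposite strands with overlapping 5′ ends, and in 445 (6.74%) the starts lay on the same strand. The remaining 2239 members (33.9%) had fewer than 2 own starts near the peak, and what places their further genes on the list was not looked up. Of the divergent members, 1275 had 2 or more protein-coding genes, 1119 had 1 and 33 had none.

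Most members listed exactly 2 genes (6008), 517 listed 3 and 38 listed 4. Of the 42 members with 5 or more genes, 38 lay in the protocadherin (Pcdh) clusters and 2 in the Ugt1a cluster, both of which string many first exons along a shared gene, and the longest list held 26 genes. An unnamed (Gm or Rik) or small RNA gene was among the genes of 4398 members (66.6%). Members are not independent of each other, because 2338 of them overlapped another peak, and together they formed 4519 merged regions with 4129 distinct gene sets.

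The stretch between the starts is the part of a divergent promoter that its genes share, so it is shown for 9 divergent members, as the plus strand of GRCm38 without annotated exon bases. Where exons split a stretch, the part with the most motif matches was taken. Of parts over 300 bases, 300 are printed, centred between the first and the last match where the ends allow. The printed letters were thus picked for their matches, so counts in them do not show how common a motif is. They are known pairs, T cell pairs and a mitochondrial pair whose values follow further on. Capitals mark matches, on either strand, to 5 consensus motifs, namely CCGGAAG (GABP and other ETS factors), the NRF1 palindrome, AANATGGCG (YY1), CCAAT (NFY) and GGGCGG (SP factors).
Npat/Atm, chr9:53536747-53537046: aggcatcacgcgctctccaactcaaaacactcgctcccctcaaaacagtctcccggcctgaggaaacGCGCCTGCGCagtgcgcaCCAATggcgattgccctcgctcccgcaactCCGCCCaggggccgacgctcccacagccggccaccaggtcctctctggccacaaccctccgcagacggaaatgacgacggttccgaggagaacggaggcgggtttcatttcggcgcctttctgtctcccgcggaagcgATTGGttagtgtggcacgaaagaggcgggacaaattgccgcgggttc
Prkdc/Mcm4, chr16:15637425-15637724: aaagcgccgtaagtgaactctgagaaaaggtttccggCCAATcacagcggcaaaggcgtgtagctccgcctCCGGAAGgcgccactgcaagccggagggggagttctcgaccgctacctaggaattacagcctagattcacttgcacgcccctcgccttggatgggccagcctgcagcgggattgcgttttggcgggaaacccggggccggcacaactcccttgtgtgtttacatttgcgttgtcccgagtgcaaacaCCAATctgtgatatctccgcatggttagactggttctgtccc
Mrps12/Sars2, chr7:28741821-28741991: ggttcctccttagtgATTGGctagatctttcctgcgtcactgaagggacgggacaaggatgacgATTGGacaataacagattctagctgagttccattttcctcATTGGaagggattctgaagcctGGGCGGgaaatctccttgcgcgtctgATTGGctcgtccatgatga
Bop1/Hsf1, chr15:76477278-76477421: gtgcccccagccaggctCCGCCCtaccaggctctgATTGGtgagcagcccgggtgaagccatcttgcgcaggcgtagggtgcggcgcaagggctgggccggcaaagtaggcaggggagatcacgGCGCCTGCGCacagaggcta
Serpini1/Pdcd10, chr3:75557033-75557332: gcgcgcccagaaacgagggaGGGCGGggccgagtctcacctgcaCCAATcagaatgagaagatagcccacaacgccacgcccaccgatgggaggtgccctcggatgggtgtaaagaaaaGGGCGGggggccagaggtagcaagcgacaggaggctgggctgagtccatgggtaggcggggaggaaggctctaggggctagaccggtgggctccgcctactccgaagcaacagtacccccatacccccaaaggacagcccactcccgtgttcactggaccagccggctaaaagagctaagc
Brca1/Nbr1, chr11:101551956-101552148: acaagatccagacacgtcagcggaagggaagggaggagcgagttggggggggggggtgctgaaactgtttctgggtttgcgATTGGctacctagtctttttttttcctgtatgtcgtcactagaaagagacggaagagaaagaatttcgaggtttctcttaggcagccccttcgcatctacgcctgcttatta
Sdhd/Timm8b, chr9:50603813-50603909: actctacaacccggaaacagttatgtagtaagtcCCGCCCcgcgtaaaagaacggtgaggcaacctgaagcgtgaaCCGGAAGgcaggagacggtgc
Park7/Tnfrsf9, chr4:150914438-150914561: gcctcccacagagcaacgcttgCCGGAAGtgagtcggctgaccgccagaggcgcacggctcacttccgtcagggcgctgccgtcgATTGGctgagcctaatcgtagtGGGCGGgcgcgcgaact
Ppp1r3f/Flicr (peak also listed for Foxp3), chrX:7574284-7574491: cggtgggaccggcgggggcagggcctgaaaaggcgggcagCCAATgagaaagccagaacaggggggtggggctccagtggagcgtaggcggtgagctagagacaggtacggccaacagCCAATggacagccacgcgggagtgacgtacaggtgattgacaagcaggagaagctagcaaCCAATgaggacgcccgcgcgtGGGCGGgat
The stretch of Mrps12 and Sars2 held 4 CCAAT matches, and that of Ppp1r3f and Flicr held 3. An NRF1 match lay in the stretches of Npat and Atm and of Bop1 and Hsf1, and an ETS match in those of Prkdc and Mcm4, Sdhd and Timm8b, and Park7 and Tnfrsf9. The YY1 letters were not in these 9 stretches.

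Across the whole set, motif letters were counted in a window of 300 bp around the centre of each promoter-class peak, on both strands. The ETS letters CCGGAAG were in 23.7% of divergent members, 16.1% of all shared promoters, 10.2% of single-gene promoters and 11.5% of all promoter-class peaks. The NRF1 letters were in 11.0% of divergent members, 6.98% of shared promoters, 4.64% of single-gene promoters and 5.17% of all promoter-class peaks. CCAAT was in 39.7% of divergent members, 31.7% of shared promoters, 28.2% of single-gene promoters and 28.9% of all. GGGCGG, which can occur by base composition in GC-rich DNA, was in 71.6% of divergent members, 56.8% of shared promoters, 46.9% of single-gene promoters and 49.1% of all.

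The YY1 letters were in 6.88% of divergent members, 5.12% of shared promoters and 3.10% of single-gene promoters, with 3.55% in all. The CREB-family palindrome TGACGTCA was in 3.96%, 2.39% and 1.5% of the same sets, with 1.70% in all. The TATA letters TATAAA ran the other way, in 2.80% of divergent members, 5.60% of shared promoters and 6.96% of single-gene promoters, with 6.65% in all. The STAT5 letters TTCNNNGAA were in 6.14% of divergent members, 6.18% of shared promoters and 7.30% of single-gene promoters, with 7.05% in all. Overlapping matches of different motifs were each counted, and a match is a description of letters, not of binding.

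Shared promoters were also wider and richer in CpG. Their median width was 773 bp, against 541 bp for single-gene promoters. GC content and CpG were read in the window of 300 bp around the peak centre, which reaches beyond narrower peaks. The median GC content was 63.0% in shared promoters against 59.3% in single-gene promoters. The observed-to-expected CpG ratio was 0.868 in divergent members and 0.779 in all shared promoters, against 0.664 in single-gene promoters. Members with fewer than 2 own starts differed from the other members on this measure, with a median ratio of 0.534.

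Shared promoters were more accessible than single-gene promoters in every library. The level is given as CPM per kb of peak, from the mean log2 value over the 31 libraries. Its median was 13.2 CPM per kb in shared promoters and 10.5 CPM per kb in single-gene promoters, against 5.70 in intron peaks, 5.00 in intergenic peaks and 6.4 in all peaks. Within each library, the median log2 level of shared promoters minus that of single-gene promoters lay between 0.21 and 0.44, with a median of 0.30, and it was above 0 in 31 of 31 libraries. The libraries share the same peaks, so no test was made of this difference.

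**Figure D1:**
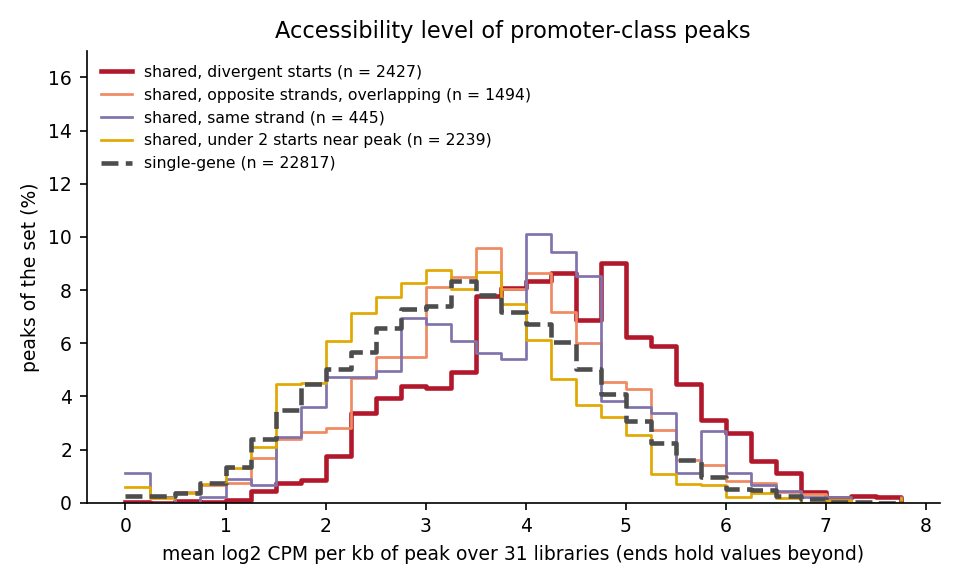
Share of peaks (%, vertical axis) by mean log2 CPM per kb of peak over 31 libraries (horizontal axis, bins of 0.25), for shared promoters split by the arrangement of their starts and for single-gene promoters (dashed). Divergent members (n = 2427) lie to the right of single-gene promoters (n = 22817), with medians of 19.3 and 10.5 CPM per kb, and members with fewer than 2 starts lie to the left, at 9.10 CPM per kb.

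The arrangement of the starts separated the members. Divergent members had a median of 19.3 CPM per kb, those with overlapping 5′ ends on opposite strands 12.6, those on the same strand 14.0 and those with fewer than 2 own starts 9.10 CPM per kb. Relative to single-gene promoters, the within-library difference in median log2 level was 0.83 for divergent members, with a range of 0.67 to 1.00, and -0.19 for members with fewer than 2 starts, with a range of -0.30 to -0.12 that was below 0 in all 31 libraries. Among divergent members, those with 2 or more coding genes had a median of 22.0 CPM per kb and those with 1 coding gene 17.1 CPM per kb.

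**Figure D2:**
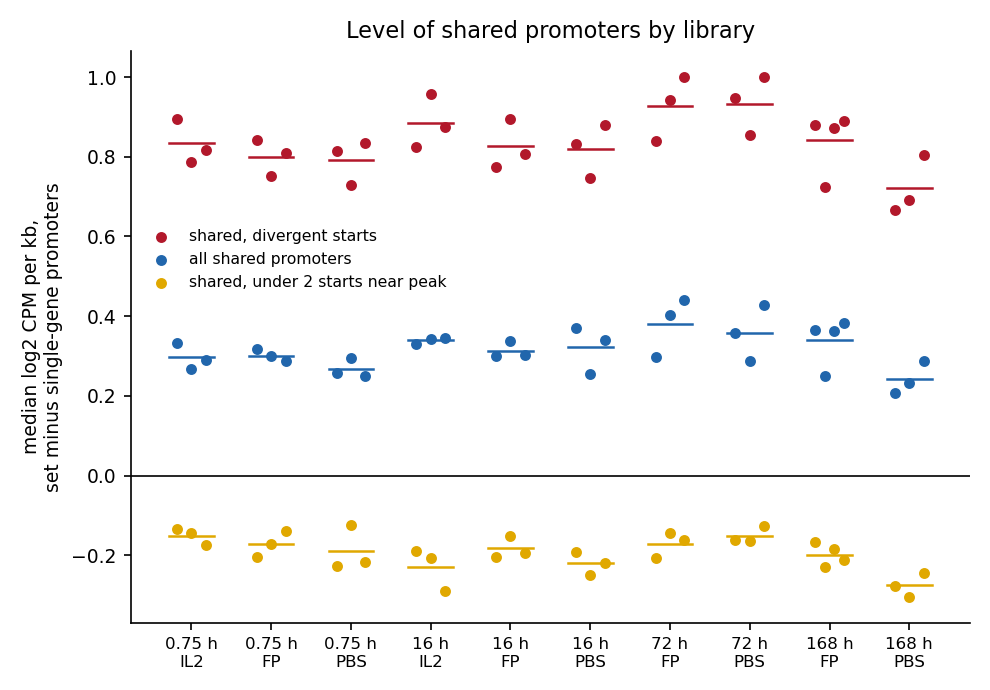
Median log2 CPM per kb of divergent members (red), all shared promoters (blue) and members with fewer than 2 starts (yellow), each minus that of single-gene promoters (vertical axis), for every library (points) with group means (lines), by time and treatment (horizontal axis). The blue points run from 0.21 to 0.44, and all yellow points lie below 0.

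The level of divergent members also varied with the distance between the starts. The median was 15 CPM per kb for the 236 members with a gap under 50 bp, 16.5 for the 561 with 50 to 99 bp and 20.4 for the 870 from 100 up to 200 bp. It was 21.4 CPM per kb for the 406 from 200 up to 300 bp, 27.1 for the 243 from 300 up to 500 bp and 15.4 for the 111 with 500 bp or more. The median peak width was 1052 bp for gaps from 300 up to 500 bp and 891.5 bp for gaps under 50 bp.

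CpG content and width differed between the sets, so the difference in level was also read within 10 bins of each, with equal numbers of promoter-class peaks. Within bins of the CpG ratio, shared promoters lay above single-gene promoters in 8 of 10 bins, with a median difference of 0.21 on the log2 scale, and divergent members in 9 of 10 bins, with a median difference of 0.51. Within bins of width, shared promoters lay above in 10 of 10 bins, with a median difference of 0.14. The 2 bins of CpG ratio without a higher level in shared promoters were the second and the third lowest, with differences of -0.028 and -0.019.

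The members with the highest levels were not ordinary promoters. The rule for the 5 highest levels over PBS libraries named a peak on chromosome 1 with 7 unnamed genes, Gm10222 among them, and 4 peaks at Myo3a with Gm13339, Gm13340 or Gm13341 on chromosome 2. The chromosome 1 peak held 24.0% of all counts, and its share of a library ranged from 15% to 32.2%. All 31-base words of its central 300 bp also occur in the mitochondrial genome, and in the 4 peaks at Myo3a 47.0% to 77.0% of them do, so that reads of mitochondrial DNA cannot be told apart from reads of these loci. No 31-base word of the mitochondrial genome was found in 6592 of the 6605 members, and over 50% of the words in 3.

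After these, and chosen after their values were seen, came Tmx2, Med19 and Gm28635 at 252 CPM per kb over PBS libraries, the divergent pair Kbtbd3 and Aasdhppt at 202, Serpini1 and Pdcd10 at 201, Gm42418 with CT010467.1, annotated as rRNA, and AY036118 at 179, and Hjurp and Trpm8 at 173. Med19 encodes a Mediator subunit, Aasdhppt a phosphopantetheinyl transferase and Hjurp the chaperone that loads centromeric histone H3. With the chromosome 1 peak set aside, shared promoters took 14.2% to 18.8% of the counts of a library and single-gene promoters 41.3% to 51.0%.

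Of 18 pairs of genes that were listed as known divergent pairs, 16 had a member that names both genes. Cd3d with Cd3g and Afmid with Tk1 had none. In 14 of the 16 the starts were divergent in GENCODE M21, and among the others those of Ppat and Paics overlapped. Over PBS libraries the 16 ran from 5.90 to 201 CPM per kb, with a median of 24.9, and 13 of them lay above the median member. The gap between starts ran from 22 bp in Surf1 and Surf2 to 691 bp in Serpini1 and Pdcd10.

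The highest of these pairs was Serpini1 with Pdcd10, at 201 CPM per kb, which encode neuroserpin and a protein needed for vascular integrity. Prkdc, the DNA-dependent protein kinase, with Mcm4, of the replicative helicase, had 67.7 CPM per kb. Ppat with Paics, both of purine synthesis, had 59.4 CPM per kb, and Atm, the DNA damage kinase, with Npat, of histone gene transcription, had 45.4. The lowest were Surf1 and Surf2, at 5.90, and Hadha and Hadhb, the subunits of the mitochondrial trifunctional protein, at 10.3 CPM per kb. In between were Hspd1 and Hspe1, the mitochondrial chaperonin pair, at 17, Tap1 and Psmb9, of antigen processing, at 14.8, and Brca1 with Nbr1 at 15 CPM per kb.

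The promoter of Prkdc and Mcm4 varied least among these pairs. At 0.75 h the peak had 83.5, 78.4 and 81.5 CPM in IL2 libraries and 81.1, 70.4 and 80.9 CPM in FP libraries, against 81.0, 78.7 and 87.7 CPM in PBS libraries. At 168 h it had 81.1, 75.7, 85.6 and 81.1 CPM in FP libraries, against 73.5, 73.1 and 89.1 CPM in PBS libraries. The groups overlapped at both times, and the within-group SD of log2 CPM was 0.106, the lowest of the 16 pairs.

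Genes of several classes were found in shared promoters to different extents. Of all 17002 gene names with a promoter-class peak, 46.1% were in a member. The share was 60.9% (39 of 64) for histone cluster genes, 52.5% (107 of 204) for genes of mitochondrial proteins and 50.4% (57 of 113) for genes of DNA replication and repair. It was 44.0% (40 of 91) for cytosolic ribosomal protein genes and 35.5% (27 of 76) for genes of IL-2 signalling and T cell function. Counting only members with at least 2 own starts, the shares were 59.4%, 49%, 46.0%, 37.4% and 19.7% in the same order, against 34.7% of all genes. Of the 154 members with a mitochondrial protein gene, 65.6% were divergent, against 15.8% of the 95 members with an IL-2 or T cell gene.

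Replicates differed less from each other at shared promoters than at single-gene promoters, and not at peaks of like level. The spread of a peak is the SD of its log2 CPM within groups, pooled over the 10 groups with 21 degrees of freedom. Its median was 0.330 in divergent members and 0.403 in all shared promoters, against 0.478 in single-gene promoters. Within 10 such bins of mean log2 CPM the difference had a median of 0.0012 and a range of -0.031 to 0.010 over the 10 bins. In the highest bin the median SD was 0.232 in shared and 0.242 in single-gene promoters.

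**Figure D3:**
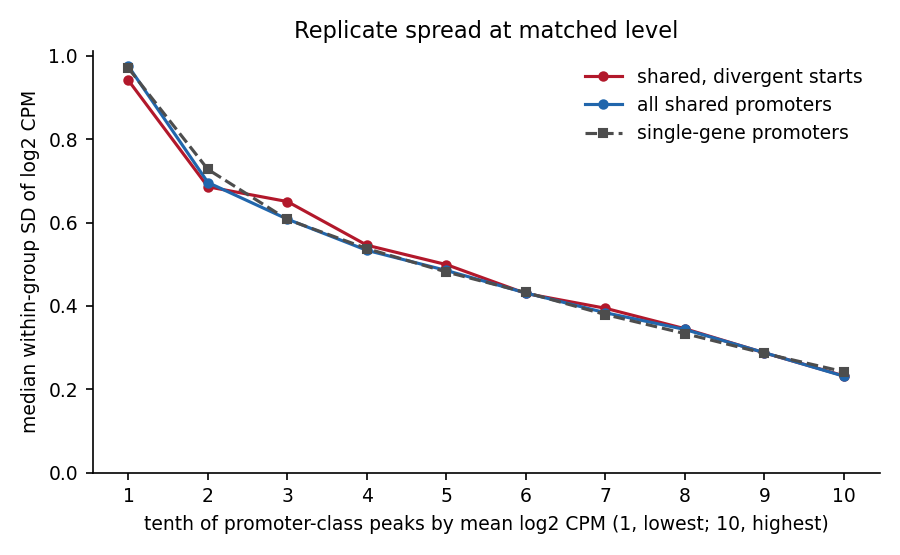
Median within-group SD of log2 CPM (vertical axis) against 10 equal bins of promoter-class peaks by mean log2 CPM (horizontal axis, lowest to highest) for divergent members (red), all shared promoters (blue) and single-gene promoters (grey, dashed). The lines run together from a median SD of 0.975 in shared and 0.970 in single-gene promoters in the lowest bin to 0.232 and 0.242 in the highest.

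At 0.75 h after IL2, 3 of 6548 shared promoters were called higher and 0 lower in the fit without the replicate number, and 7 were called higher and 3 lower in the fit with the replicate number as a block. The 3 belonged to Tctex1d1 with Gm12709, to 4930598N05Rik with Gm31904 and to Gm20257 with Flacc1. Calls are peaks with an adjusted p under 0.05 in edgeR's quasi-likelihood test, with the Benjamini-Hochberg adjustment made across the whole table. The 3 calls are 0.0458% of the members tested, where 0.497% of all tested peaks were called and 0.488% called higher, and where 46 of 22474 single-gene promoters (0.205%) were. An unadjusted p under 0.05 was found for 186 members (2.84%), against 5.74% of all tested peaks. In 428 members (6.54%) the IL2 and PBS values did not overlap, against 11.3% of all tested peaks. DESeq2 called 7 members, all higher, where it called 1.04% of all peaks. Beside the 3 above these were a peak of Cish with Gm17040, Slc30a7 with Gm43106, Bbs12 with Gm43439 and Gm13546 with Cytip.

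The deviations of same-numbered IL2 and PBS libraries at 0.75 h were correlated in all 3 pairs, at 0.167, 0.381 and 0.137, so the blocked values are given beside the others. Differently numbered pairs of IL2 and PBS libraries ran from -0.224 to 0.0828. Deviations cancel within a group, so these correlations are not independent of each other. The blocked fit also held the FP libraries of 0.75 h, blocked by their own numbers. With the block, edgeR called 0.153% of members, where it called 0.978% of all tested peaks, 0.937% higher and 0.0418% lower, and 398 members (6.08%) had an unadjusted p under 0.05, against 7.65% of all tested peaks. The 3 members above were again called higher, with adjusted p values of 7.53e-05 for Tctex1d1 with Gm12709, 0.00144 for 4930598N05Rik with Gm31904 and 0.00582 for Gm20257 with Flacc1. The other 4 called higher were 2 peaks of Cish with Gm17040, Bbs12 with Gm43439 and Gm16008 with Gm37090.

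The 3 members called lower with the block are named after their values were seen. Mex3b, an RNA-binding protein, shares a divergent promoter with Gm36584, and 2 overlapping peaks there repeat 1 region. The wider of them had 67.2, 45.4 and 73.3 CPM in IL2 libraries, against 91.5, 70.5 and 101.6 CPM in PBS libraries. The groups overlapped, and each IL2 library was below the PBS library of its number. The log2 fold change was -0.51 ± 0.13 with the block (SE, adjusted p = 0.0486 by edgeR) and -0.50 ± 0.21 without it (SE, adjusted p = 0.764 by edgeR). The peak of Baiap2l1, Bri3 and Dmrt1i had 0.0863, 0.66 and 1.01 CPM in IL2 libraries, against 2.06, 3.03 and 2.39 CPM in PBS libraries. The groups did not overlap, with a log2 fold change of -2.45 ± 0.58 with the block (SE, adjusted p = 0.0382 by edgeR) and -2.07 ± 0.68 without it (SE, adjusted p = 0.394 by edgeR).

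Tctex1d1 encodes a dynein light chain of the Tctex type, and Gm12709 is an unnamed gene on the other strand whose transcript overlaps it. Their peak (chromosome 4, 102989241 to 102989874) had 19.8, 16.4 and 16.8 CPM in IL2 libraries and 11.0, 4.96 and 5.92 CPM in FP libraries at 0.75 h, against 5.98, 2.57 and 4.18 CPM in PBS libraries. All 3 IL2 libraries were above all FP and PBS libraries, and FP overlapped PBS. FP was not tested against IL2. The log2 fold change of IL2 over PBS was 2.06 ± 0.34 (SE, n = 3 each, adjusted p = 0.0066 by edgeR).

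The same peak had 2.93, 4.92 and 2.90 CPM in IL2 libraries and 6.71, 7.95 and 10.8 CPM in FP libraries at 16 h, against 4.92, 3.71 and 1.01 CPM in PBS libraries. At 72 h it had 5.36, 6.02 and 8.15 CPM in FP libraries, against 3.75, 2.89 and 3.38 CPM in PBS libraries. FP was above PBS without overlap at both times, with log2 fold changes of 1.4 ± 0.42 at 16 h and 0.92 ± 0.26 at 72 h (SE), which did not pass (adjusted p = 0.41 and 0.93 by edgeR). At 168 h the FP value was 3.84 ± 2.1 CPM (SD, n = 4) and the PBS value 3.17 ± 1.17 CPM (SD, n = 3).

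The divergent pair 4930598N05Rik and Gm31904, neither of them protein-coding, shares a peak on chromosome 10 (10234670 to 10235719) with a gap of 151 bp between the starts. It had 33.8, 29.6 and 35.1 CPM in IL2 libraries and 35.0, 26.6 and 21.1 CPM in FP libraries at 0.75 h, against 13.3, 12.5 and 17.7 CPM in PBS libraries. Both treatments were above PBS in all libraries. The log2 fold change was 1.19 ± 0.23 for IL2 (SE, n = 3 each, adjusted p = 0.0203 by edgeR) and 0.95 ± 0.23 for FP, which did not pass (adjusted p = 0.372 by edgeR) but was called by DESeq2 (adjusted p = 0.0317).

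At 16 h the peak of 4930598N05Rik and Gm31904 had 13.9, 15.8 and 11.1 CPM in IL2 libraries and 17.7, 18.2 and 16.9 CPM in FP libraries, against 8.48, 13.5 and 11.0 CPM in PBS libraries. FP lay above PBS without overlap there, by 0.68 ± 0.24 on the log2 scale (SE, adjusted p = 0.614 by edgeR). At 72 h the values were 9.99 ± 1.43 CPM in FP libraries and 8.49 ± 1.26 CPM in PBS libraries, and at 168 h 11.9 ± 1.02 and 9.88 ± 2.27 CPM (SD, n = 3, or 4 for FP at 168 h).

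The peak of Gm20257 and Flacc1 (chromosome 1, 58654206 to 58654562) holds fewer than 2 own starts and lies 383 bp from the nearest one. It had 6.47, 7.09 and 7.10 CPM in IL2 libraries and 2.59, 2.64 and 0.858 CPM in FP libraries at 0.75 h, against 1.11, 1.71 and 1.59 CPM in PBS libraries. The IL2 libraries stood alone, with a log2 fold change of 2.23 ± 0.43 (SE, n = 3 each, adjusted p = 0.0221 by edgeR). At 168 h it was lower in all FP libraries, at 0.472, 0.0865, 0.488 and 0.285 CPM, against 2.24, 1.52 and 0.601 CPM in PBS libraries, and this did not pass (adjusted p = 0.899 by edgeR).

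**Figure D4:**
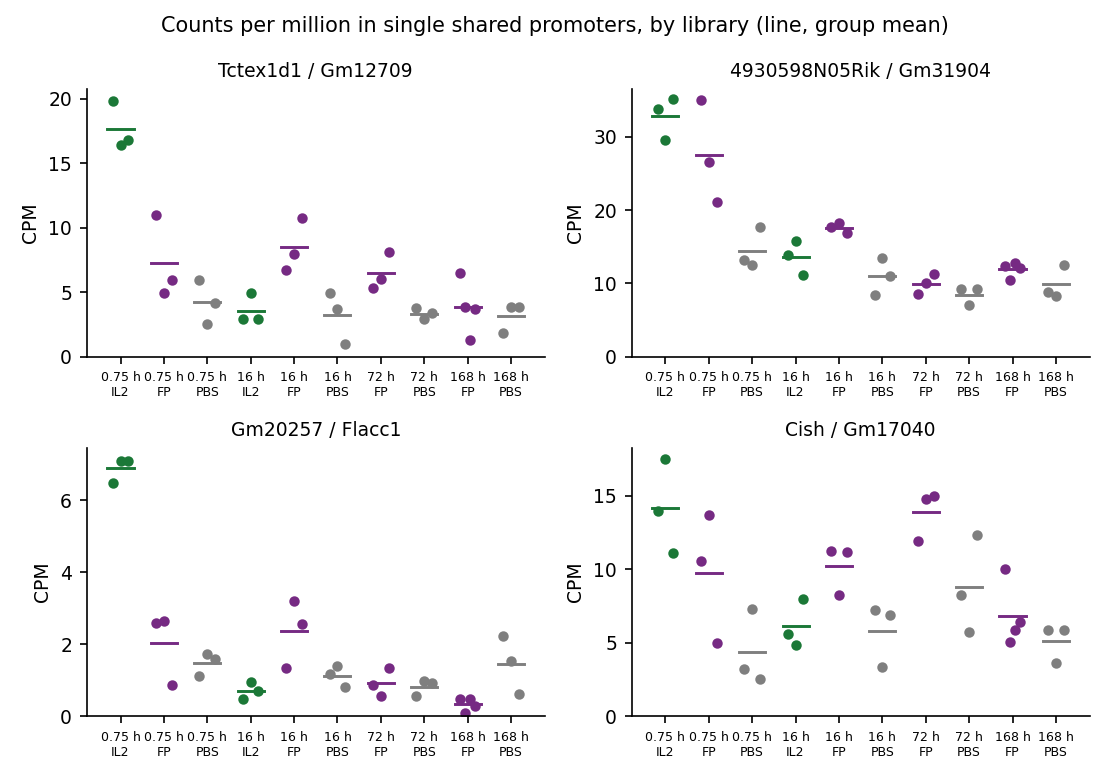
CPM (vertical axes, from 0) of 4 shared promoters in each library (points; lines, group means) by time and treatment (horizontal axes), with IL2 in green, FP in purple and PBS in grey. In the first 3 the IL2 libraries at 0.75 h lie above all PBS libraries of that time, and in Cish with Gm17040 they run from 11.1 to 17.5 CPM, against 2.54 to 7.31 CPM in PBS libraries.

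The IL2 effect was smaller at 16 h than at 0.75 h in these 3 peaks, with log2 differences (16 h minus 0.75 h) of -1.9 ± 0.63 in Tctex1d1 with Gm12709, -0.87 ± 0.31 in 4930598N05Rik with Gm31904 and -2.90 ± 0.73 in Gm20257 with Flacc1 (SE). None of these differences passed in a fit of all 31 libraries, where the adjusted p values by edgeR were 0.514, 0.641 and 0.207. In that fit 0 of the members passed for the change of the IL2 effect between 0.75 and 16 h, with 0.0411% of all peaks called. For the FP effect 0 members passed between 0.75 and 16 h, between 16 and 72 h or between 72 and 168 h, with 0%, 0.000957% and 0% of all peaks called.

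The STAT5 consensus TTCNNNGAA was looked for in the whole of these peaks, because IL-2 acts through STAT5. It was present once each in the peaks of Tctex1d1 and of 4930598N05Rik and was not found in that of Gm20257. Among promoter-class peaks of a width within 10% of theirs, 14.5% and 18.8% hold at least 1 match. The matches are shown with capitals for the consensus, together with those of 2 STAT5 target loci described next.
Tctex1d1/Gm12709, chr4:102989573-102989601: tgttgttttgTTCTGAGAAatcgttctca
4930598N05Rik/Gm31904, chr10:10235014-10235042: aggaagcagcTTCTAGGAActgcctttgt
Cish/Gm17040, chr9:107296649-107296677: ccgcccagttTTCCTGGAAagttcttgga
Socs2/5730420D15Rik, chr10:95416858-95417007: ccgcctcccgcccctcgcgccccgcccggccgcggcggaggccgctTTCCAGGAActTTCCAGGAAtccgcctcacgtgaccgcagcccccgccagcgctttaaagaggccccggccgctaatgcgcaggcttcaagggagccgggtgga
The Socs2 stretch holds 2 adjacent matches with identical letters, and the Cish peak with the match shown (chromosome 9, 107296408 to 107297062) holds 4, where 2.80% and 1.82% of promoter-class peaks of like width hold 2 or more.

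Cish and Socs2 encode cytokine-inducible inhibitors of receptor signalling and are known targets of STAT5. Cish with the unnamed Gm17040 had more than 1 member, and the peak with the larger change (chromosome 9, 107295430 to 107296311), named here after its values were seen, had 14.0, 17.5 and 11.1 CPM in IL2 libraries and 10.6, 13.7 and 4.97 CPM in FP libraries at 0.75 h. PBS libraries had 3.21, 7.31 and 2.54 CPM. IL2 was above PBS in all libraries, with a log2 fold change of 1.71 ± 0.40 (SE, n = 3 each), an adjusted p of 0.0784 by edgeR, 0.000522 by edgeR with the replicate block and 0.00588 by DESeq2. This peak holds 1 STAT5 match, as 17% of promoter-class peaks of like width hold at least 1. FP overlapped PBS, with 1.18 ± 0.40 (SE).

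The neighbouring Cish peak, with the 4 STAT5 matches, had 15.9, 15.2 and 10.2 CPM in IL2 libraries and 7.70, 11.9 and 10.4 CPM in FP libraries at 0.75 h, against 5.65, 9.28 and 5.22 CPM in PBS libraries. Its log2 fold change for IL2 was 1.04 ± 0.30 (SE, adjusted p = 0.234 by edgeR, and 0.0416 with the replicate block). At 16 h the same peak had 7.41 ± 1.78 CPM in IL2 libraries and 12.9 ± 1.06 CPM in FP libraries, against 10.5 ± 2.95 CPM in PBS libraries (SD, n = 3 each).

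At 0.75 h after FP, 0 of 6548 members were called by edgeR and 80 (1.22%) had an unadjusted p under 0.05, with 0.00199% and 3.15% of all tested peaks, and DESeq2 called 1 (0.347% of all peaks). In 5.47% of members the groups did not overlap, against 8.43% of all peaks. The members with the lowest p were that of 4930598N05Rik, given above, and the divergent pair of Dcun1d1, a cofactor of cullin neddylation, and Gm15952. The Dcun1d1 peak had 11.2, 8.13 and 10.8 CPM in FP libraries, against 21.2, 12.8 and 19.1 CPM in PBS libraries (log2 fold change -0.80 ± 0.25, SE, adjusted p = 0.954 by edgeR).

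At 16 h after IL2, 0 of 6571 members were called by edgeR or by DESeq2, and 210 (3.20%) had an unadjusted p under 0.05, where edgeR called 0% of all tested peaks, DESeq2 0.000953%, and 3.62% had such a p. The groups did not overlap in 595 members (9.05%), against 8.99% of all peaks. The lowest p belonged to 2210011C24Rik with the microRNA gene Mir1199, which had 2.70, 1.54 and 3.58 CPM in IL2 libraries, against 8.36, 5.66 and 6.19 CPM in PBS libraries. Next was Kbtbd11 with Gm37844, at 27.8, 33.8 and 28.2 CPM in IL2 libraries, against 19.4, 14.8 and 21.7 CPM in PBS libraries. The groups did not overlap at either peak, and neither passed (adjusted p = 1.00 each by edgeR).

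At 16 h after FP, 0 of 6571 members were called by edgeR and 302 (4.6%) had an unadjusted p under 0.05, where 0.114% and 5.31% of all tested peaks did, and 12 of 22618 single-gene promoters (0.0531%) were called. In 12.5% of members the groups did not overlap, against 12.3% of all peaks. Itgav, an integrin subunit, with Dnmt3l-ps1 and Gm13684, had 14.1, 12.7 and 12.1 CPM in FP libraries and 5.02, 6.83 and 3.96 CPM in IL2 libraries, against 4.88, 6.57 and 4.16 CPM in PBS libraries. FP stood above IL2 and PBS in every library, by a log2 fold change over PBS of 1.32 ± 0.30 (SE, adjusted p = 0.0976 by edgeR). Socs2 with 5730420D15Rik had 30.4, 29.2 and 30.8 CPM in FP libraries and 17.8, 19.1 and 19.9 CPM in IL2 libraries, against 17.9, 16.5 and 18 CPM in PBS libraries.

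FP was again above IL2 and PBS in every library at the Socs2 peak, by a log2 fold change over PBS of 0.79 ± 0.19 (SE, adjusted p = 0.159 by edgeR). DESeq2 called both peaks, at adjusted p values of 0.00257 for Itgav and 0.00305 for Socs2, and no other member, where it called 0.538% of all peaks. At 0.75 h the Socs2 peak had 29.3, 17.1 and 30.4 CPM in IL2 libraries and 29, 16.4 and 21.1 CPM in FP libraries, against 18.3, 13.9 and 16.3 CPM in PBS libraries, and both treatments overlapped PBS.

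At 72 h after FP, 0 of 6575 members were called by edgeR, 303 (4.61%) had an unadjusted p under 0.05 and DESeq2 called 1, where the shares of all tested peaks were 0%, 5.21% and 0.16%. Groups without overlap were found in 9.48% of members, against 11.2% of all peaks. Arhgef19, a guanine nucleotide exchange factor, forms a divergent pair with C630004L07Rik whose starts lie 46 bp apart. Their peak had 9.39, 11.3 and 9.84 CPM in FP libraries, against 4.78, 4.01 and 5.61 CPM in PBS libraries, with a log2 fold change of 1.05 ± 0.22 (SE, n = 3 each), an adjusted p of 0.93 by edgeR and 0.00898 by DESeq2. Ccdc88c with Gm36756, a peak with fewer counts, had 3.15, 2.96 and 2.90 CPM in FP libraries, against 1.03, 1.16 and 1.3 CPM in PBS libraries (adjusted p = 0.93 by edgeR).

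At 168 h after FP, 0 of 6570 members were called by edgeR or by DESeq2 and 345 (5.25%) had an unadjusted p under 0.05, where the shares of all tested peaks were 0%, 0.0229% and 4.54%. FP and PBS values did not overlap in 7.43% of members, against 6.24% of all peaks. The divergent pair of Sdhd, a subunit of succinate dehydrogenase, and Timm8b, of mitochondrial protein import, had 26.0, 24.5, 24.1 and 25.8 CPM in FP libraries, against 12.0, 11.7 and 17.2 CPM in PBS libraries (log2 fold change 0.85 ± 0.19, SE, adjusted p = 0.899 by edgeR). Tmem266 with Nrg4, a neuregulin, had 1.95, 2.25, 2.34 and 1.31 CPM in FP libraries, against 6.29, 6.03 and 3.97 CPM in PBS libraries (adjusted p = 0.899 by edgeR). The groups did not overlap at either peak.

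The median log2 fold change of members, single-gene promoters and all tested peaks was -0.02, -0.03 and -0.02 for IL2 at 0.75 h, and 0.00, 0.00 and 0.01 for FP at 0.75 h. It was 0.10, 0.06 and 0.00 for IL2 at 16 h, 0.04, 0.02 and -0.02 for FP at 16 h, and 0.05, 0.05 and -0.03 for FP at 72 h. At 168 h after FP it was 0.16, 0.12 and -0.01, and library totals also differed there, at 29.3 ± 11.5 M in FP libraries (SD, n = 4) and 18.2 ± 13.8 M in PBS libraries (SD, n = 3). Without the 2 libraries that stood apart, the 168 h medians were 0.18, 0.13 and -0.02, a setting chosen after the values were seen. With the library total as a covariate they were 0.04, 0.02 and 0.01, and without 1 library the members' median ran from 0.12 to 0.27.

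**Figure D5:**
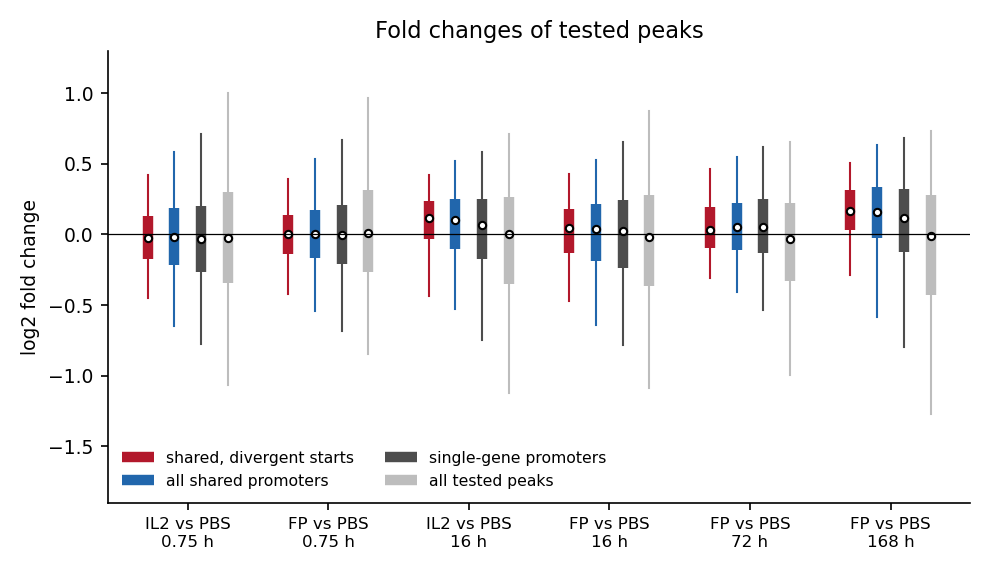
Log2 fold change against PBS of the same time (vertical axis) in the 6 comparisons (horizontal axis) for divergent members, all shared promoters, single-gene promoters and all tested peaks. Circles are medians, thick bars quartiles and thin lines the 5th to 95th percentiles, and the line of divergent members is shorter than that of all tested peaks in each comparison, at -0.45 to 0.42 and -1.07 to 1.00 for IL2 at 0.75 h.

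For IL2 at 0.75 h, 2.69% of members tested, 0.743% of divergent members, 5.11% of single-gene promoters and 10.7% of all tested peaks changed by more than 2-fold in either direction, whatever their p. In the lowest of 5 equal bins of promoter-class peaks by level the median size of the log2 fold change was 0.46 in shared and 0.47 in single-gene promoters, and in the highest bin 0.12 and 0.13. The 3 calls fell in the lowest, the middle and the second highest bin, where 0.105%, 0.349% and 0.115% of single-gene promoters were called.

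None of the 16 known pairs was called in any of the 6 comparisons by edgeR. Their log2 fold changes ran from -0.15 to 0.64 for IL2 at 0.75 h. At 72 h the peak of Serpini1 and Pdcd10 had 145.8, 171.9 and 189.8 CPM in FP libraries, against 194.8, 198.9 and 198.9 CPM in PBS libraries. FP was below PBS without overlap, by a log2 fold change of -0.26 ± 0.10 (SE, n = 3 each), and this did not pass (adjusted p = 0.93 by edgeR). For FP at 72 h, 2 of the 16 pairs had an unadjusted p under 0.05 and 3 did not overlap PBS. The shares of all tested peaks were 5.21% and 11.2%. In 6 of the 16 the log2 fold change was above 0, with a median of -0.17, where that of all shared promoters was 0.05. No known pair had an unadjusted p under 0.05 in the other 5 comparisons.

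Shared promoters of IL-2 and T cell genes numbered 95 and belonged to 32 gene sets, of which 15 had starts of at least 2 genes. None was called by edgeR in any comparison without the replicate block, and with it 2 Cish peaks were, for IL2 at 0.75 h. At 0.75 h, 6 of the 95 (6.32%) had an unadjusted p under 0.05 for IL2 and 1 (1.05%) for FP, against 5.74% and 3.15% of all tested peaks. At 16 h these were 1 (1.05%) for IL2 and 4 (4.21%) for FP, against 3.62% and 5.31%. For FP they were 3 (3.16%) at 72 h and 15 (15.8%) at 168 h, against 5.21% and 4.54% of all tested peaks. Many of the 95 overlap, and with 1 peak for each of the 32 gene sets, 1 had such a p at 168 h. The 10 with the highest level over PBS libraries were Ccnd2 (cyclin D2) with 9330179D12Rik at 29.2 CPM per kb, Gata3, a lineage transcription factor, with Gm13256 at 28.2 CPM per kb, and 8 overlapping peaks of Park7 and Tnfrsf9 at 24.9 to 28.6 CPM per kb. The Park7 and Tnfrsf9 peaks overlap and repeat 1 region, so they are not separate evidence.

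Tnfrsf9 encodes the costimulatory receptor 4-1BB and Park7 a redox-sensitive protein, and their starts diverge with a gap of 125 bp, shown above. At 0.75 h their highest peak had 21.8, 15.5 and 15.2 CPM in IL2 libraries and 17.1, 17.1 and 15.5 CPM in FP libraries, against 14.3, 16.3 and 15.4 CPM in PBS libraries. The groups overlapped there and at 16 h. At 72 h it had 20.3, 24.5 and 25.9 CPM in FP libraries, against 19.3, 16.0 and 24.5 CPM in PBS libraries, which also overlap, and its largest log2 fold change was 0.38 ± 0.21 for FP at 168 h (SE, adjusted p = 0.899 by edgeR).

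The peak listed for Foxp3, the defining transcription factor of Tregs, is shared with Flicr, Gm36995 and Ppp1r3f and is described here after its values were seen, and its nearest diverging starts are those of Ppp1r3f and Flicr, 209 bp apart. At 0.75 h it had 14.4, 19.7 and 15 CPM in IL2 libraries and 16.3, 11.5 and 14.5 CPM in FP libraries, against 13.7, 16.5 and 14.9 CPM in PBS libraries. Its log2 fold changes over the 6 comparisons ran from -0.12 to 0.31, and none passed by edgeR. Other T cell pairs with diverging starts, named after their values were seen, were S1pr1, a receptor for exit from lymphoid tissue, with Gm9889 at 17.5 CPM per kb, Runx3 with Gm16225 at 11.4 and Ikzf4, an Ikaros family factor of Tregs, with Gm26876 at 5.86 CPM per kb.

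Over the highest peak of each of the 32 T cell gene sets, the median log2 fold change was 0.03 for IL2 at 0.75 h and -0.04 for FP at 0.75 h, with ranges of -1.03 to 1.04 and -0.79 to 0.59. For IL2 at 0.75 h the extremes were Cish with Gm17040, given above, and Ikzf1 with Gm11999, which is named after its values were seen, at -1.03 ± 0.48 (SE, adjusted p = 0.858 by edgeR). For FP the median was 0.07 at 16 h, 0.20 at 72 h and 0.29 at 168 h, where that of all shared promoters was 0.04, 0.05 and 0.16 and that of all tested peaks -0.02, -0.03 and -0.01. Library totals differed between FP and PBS at 168 h, and with the library total as covariate the median of all shared promoters there was 0.04. List medians with that covariate are not given. Over all members of each list, overlapping peaks included, the median for FP at 168 h without it was 0.39 for IL-2 and T cell genes, 0.28 for histone genes, 0.23 for DNA replication and repair, 0.18 for cytosolic ribosomal proteins and 0.16 for mitochondrial proteins. In the other lists, 0 members were called by edgeR in any comparison, with or without the replicate block, among the 68 with a DNA replication or repair gene, the 154 with a mitochondrial protein gene, the 72 with a cytosolic ribosomal protein gene and the 67 with a histone gene. All 3 calls made without the block were among the 4398 members that list an unnamed or small RNA gene.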

How the data were processed

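The authors' deposited table gave raw ATAC-seq counts per peak for 31 libraries, with each peak's class and genes. Per the labels and the submitters' processing notes, nuclei were tagged with Tn5, reads were mapped to GRCm38 with BWA, and peaks were called with MACS2 2.1.2 and kept when reproducible between 2 pseudo-replicates. The sources used here do not say whether insertions were shifted. The peak class and gene names stand in another deposited column, which is text.

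Counts were scaled by TMM factors (edgeR 4.0.16, limma 3.58.1, R 4.3.3). Each time was fitted with all its groups by edgeR's quasi-likelihood test after filterByExpr (minimum count 10, minimum total 15), and p-values were adjusted over all tested peaks. SEs were computed as the absolute log2 fold change over the square root of F. DESeq2 1.42.0 was an alternative. The biological coefficient of variation was 43.3% at 0.75 h, 41.0% at 16 h, 38.6% at 72 h and 48.0% at 168 h. Levels are log2 CPM with a prior count of 2, less log2 of the peak width in kb. The edgeR test of FP against PBS at each time was also run on simulated counts. The IL2 comparisons, the replicate block, DESeq2, the levels and the spreads were not part of that simulation.

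Named peaks were the called members, or the 2 with the lowest p where none was called, the known pairs, the 5 highest levels and the 10 highest of the T cell list. Any other is said to be chosen after its values were seen. The members, lists and tests were chosen with earlier results of these data known. The labels do not say that a replicate number marks a shared batch. Numbers were taken to pair groups where every same-numbered pair of deviations from the group means correlated over 0.1, which held for IL2 with PBS at 0.75 h (0.137 to 0.381). It did not hold for FP with PBS, where the lowest were -0.0055 at 0.75 h, -0.219 at 72 h and -0.223 at 168 h. The blocked fit at 0.75 h nevertheless included the FP libraries, which entered its block terms and its estimate of the spread. A blocked fit of IL2 and PBS alone was not made. The values of 1 known pair are not reported here.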

Additional observations from a re-analysis of the deposited data

Results flagged for a closer look

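Among 44 groups of 4 libraries checked at 168 h after FP, 2 held a library far from the others, which is near the chance rate of about 1 in 20. The peak of Gata3 and Gm13256 had 6.31 CPM in 1 FP library, against 15.3 to 16.2 CPM in the other 3. The median log2 level of shared promoters minus that of single-gene promoters was 0.25 in 1 FP library, against 0.36 to 0.38 in the other 3. Both values come from FP replicate 2, which has 12.3 M counts and a mean correlation of 0.772 with the other libraries. Whether these move together for that reason was not tested.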

How the results depend on the processing

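For IL2 at 0.75 h, where 3 members were called, DESeq2 called 7, a fit with the replicate block 10 (7 higher, 3 lower), a fit with the library total as covariate 1, and divergent members alone gave 1. Leaving out 1 library gave 1 to 5 calls. Tctex1d1 with Gm12709 was called in 15 of 16 alternatives and missed without PBS replicate 3 (adjusted p = 0.0527 by edgeR). 4930598N05Rik with Gm31904 was called in 11 of 16, with a highest adjusted p of 0.139 by edgeR, and missed with the covariate and without IL2 replicate 1 or 3 or PBS replicate 1 or 2. Gm20257 with Flacc1 was called in 9 of 16, with a highest adjusted p of 0.147 by edgeR, and missed with the covariate and without any IL2 or PBS library. DESeq2 called 1 member for FP at 0.75 h, 2 for FP at 16 h and 1 for FP at 72 h, where edgeR called 0. A fit of only 2 groups called 1 for FP at 16 h, and the library total as covariate called 4 for FP at 72 h. Among those 4 was the chromosome 1 peak with Gm10222, whose reads cannot be told apart from reads of mitochondrial DNA. The replicate block called 0 members for FP at 0.75, 72 and 168 h, as without it. Of all tested peaks it called 0.128% for FP at 0.75 h, against 0.00199% without it, and 0% at 72 and 168 h. Of single-gene promoters it called 0.0489% for FP at 0.75 h. Counts from the covariate, from only 2 groups and from leaving out 1 library are given without the share of all peaks. The number of members with an unadjusted p under 0.05 moved with single libraries, over 104 to 431 for IL2 and 43 to 323 for FP at 0.75 h, 180 to 409 for IL2 and 200 to 457 for FP at 16 h, and 87 to 1159 at 72 h and 114 to 1168 at 168 h for FP. No paired analysis was possible at 16 h because the count columns carry other numbers than the titles. The shared minus single-gene median log2 fold change for IL2 at 16 h was 0.034 and -0.016 with the covariate. The level difference, 0.302, was 0.465 with 1 peak per merged region, 0.497 without unnamed genes, 0.595 with at least 2 own starts, 0.835 for divergent members, -0.191 for members with fewer than 2 starts, 0.927 per peak, 0.207 within CpG bins and 0.143 within width bins, and 0.301 to 0.309 without 1 library. The spread difference, -0.0752, was -0.0970 without unnamed genes, -0.110 with at least 2 own starts, -0.148 for divergent members, 0.0069 for members with fewer than 2 starts and 0.0012 within level bins, and -0.0766 to -0.0712 without 1 library. The cause of these shifts was not tested, and settings on the members' own set were added after the data were seen.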
